A study of Mus musculus with 3 samples.

Results

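Fatty acid uptake, storage and oxidation was followed through 38 named genes in mouse gastrocnemius, a mostly fast-twitch calf muscle. The members were all probe sets, that is groups of short oligonucleotide probes on an Affymetrix array, which the platform annotation assigns to 1 of these genes alone. This gave 63 probe sets for 35 of the 38 genes, out of 18193 genes with such a probe set on the array. No probe set was assigned to Acsl1, Cpt1b or Ucp2 alone, and these 3 genes were not analysed here. A further 2 probe sets that list a member together with other genes were not read. All mice were Akt_Cre transgenic C57BL/CD1 animals which, per the labels, make Akt, a kinase of insulin and IGF1 signalling, fused to an oestrogen-binding domain in skeletal muscle. Tamoxifen is said there to stabilise the fusion and lead to muscle growth. The groups were tamoxifen for 48 h, tamoxifen for 24 h and oil for 24 h, the vehicle control, with 1 array each of RNA pooled from 3 to 4 mice. Age, the promoter of the transgene and the part played by Cre are not given in the sources used here.

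Muscle takes fatty acids from lipoproteins through lipoprotein lipase in the capillary, carries them across the cell membrane and binds them inside the cell. Acyl-CoA synthetases activate them, after which they are either stored in lipid droplets or passed by carnitine palmitoyltransferases into mitochondria, where beta-oxidation shortens them by repeated cycles and electron transfer flavoprotein carries electrons onward. Many of these genes are known targets of PPAR receptors and their coactivators, and insulin signalling generally favours the use of glucose over fat.

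With 1 array a group there was no replicate error and no test could be made, so higher and lower below describe these 3 pools and not the conditions. Intensities are linear values scaled to the same median on each array, and a gene was called when it differed by at least 2-fold. Each gene was read on its brightest probe set among those in the upper part of the intensity ranking, called kept, and all 35 genes had at least 1. Of the 63 probe sets 59 were kept, and 16 genes had 2 or more. The kept probe sets of one gene served as a rough measure of technical spread. They sit on the same 3 arrays, so this spread leaves out the error between arrays and between pools. Over the 5001 genes with at least 2 kept probe sets, the log2 ratio of a single probe set had a standard deviation of 0.37 between probe sets of the same gene for tamoxifen 48 h against oil and 0.43 for tamoxifen 24 h against oil. Markers of muscle fibre were strong on every array, with Ckm, muscle creatine kinase, at 9580, 9204 and 9693 on the tamoxifen 48 h, tamoxifen 24 h and oil arrays. In whole muscle, fewer cells of a type and less RNA per cell cannot be told apart.

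At 48 h of tamoxifen, 4 of the 35 genes were at least 2-fold above oil (background 3.72% of 11092 genes): Angptl4, Ucp3, Plin5 and Fabp3. None was at least 2-fold below oil (background 2.71%). At 24 h, Plin5 alone was at least 2-fold above oil (background 2.35%) and Pdk4 alone at least 2-fold below (background 2.48%). Between the tamoxifen arrays, Angptl4, Ucp3 and Pdk4 were at least 2-fold higher at 48 h than at 24 h (background 1.80%) and Acsl3 at least 2-fold lower (background 1.42%). The remaining 29 genes were within 2-fold in all 3 comparisons. The balance at 24 h depended on scaling. Unscaled values gave 2 higher and 1 lower, beside 363 higher and 206 lower of all 11092 genes. Arrays scaled to the median of all probe sets gave 4 higher and 0 lower, beside 701 higher and 115 lower of all genes. Over all genes, the unscaled values raised the higher share of calls at 24 h to 63.8%, against 48.7%, and lowered it between the tamoxifen arrays to 29.3%, against 56.0%.

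**Figure D1:**
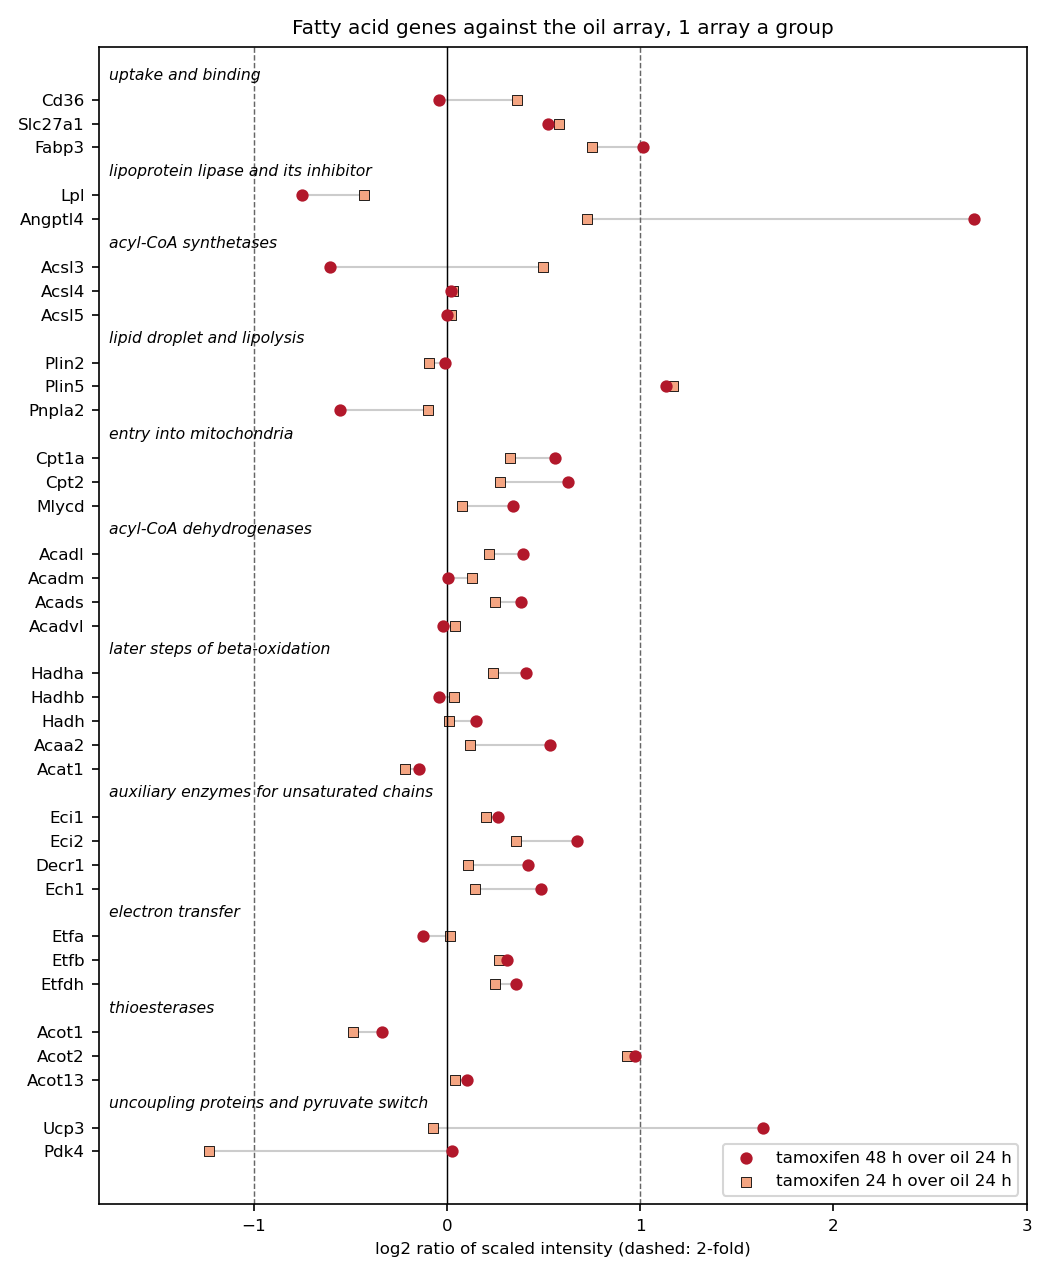
Log2 ratio of scaled intensity to the oil array for 35 fatty acid genes, arranged by role, with circles for tamoxifen 48 h and squares for tamoxifen 24 h and 1 array a group. Angptl4 lies farthest to the right at 48 h (2.73), Pdk4 farthest to the left at 24 h (-1.23), and most oxidation enzymes lie between 0 and 0.7.

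The start regions of the called genes were laid out first, because the values below turn on these genes and PPAR and forkhead (FoxO) factors are textbook regulators of several of them. RefSeq promoter windows of GRCm38.p6 were available for 31 of the 38 genes, in 35 windows, and Angptl4 was not among them. The 250 bases before each start were searched on both strands for the PPAR/RXR direct repeat AGGTCANAGGTCA, the single hexamer AGGTCA and the forkhead letters GTAAACA. A direct repeat would also count as a hexamer. The hexamer occurred in 7 of 35 windows, those of Acadm, Acadvl, Cd36, Cpt1a, Plin2, Plin5 and Ucp3, against 14.0% of all 32851 windows. The full repeat and the forkhead letters were in none of the 35, against 0.0335% and 3.17% of all windows. Shown 5′ to 3′ are chr17:56117549-56117798 (minus strand, the upstream of 2 Plin5 starts), chr4:130308488-130308737 (plus, Fabp3), chr7:100472741-100472990 (plus, Ucp3), chr6:5496279-5496528 (minus, Pdk4) and chr1:78657575-78657824 (plus, Acsl3), with the hexamer in capitals.
Plin5: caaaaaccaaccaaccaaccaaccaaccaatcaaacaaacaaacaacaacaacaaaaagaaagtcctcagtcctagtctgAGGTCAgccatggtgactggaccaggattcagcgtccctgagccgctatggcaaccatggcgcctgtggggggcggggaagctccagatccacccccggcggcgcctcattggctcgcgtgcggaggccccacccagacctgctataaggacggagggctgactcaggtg
Fabp3: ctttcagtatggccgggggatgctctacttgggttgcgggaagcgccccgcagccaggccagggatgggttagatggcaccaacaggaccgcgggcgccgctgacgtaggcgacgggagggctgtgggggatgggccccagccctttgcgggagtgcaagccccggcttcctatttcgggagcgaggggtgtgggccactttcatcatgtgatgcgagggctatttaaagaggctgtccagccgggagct
Ucp3: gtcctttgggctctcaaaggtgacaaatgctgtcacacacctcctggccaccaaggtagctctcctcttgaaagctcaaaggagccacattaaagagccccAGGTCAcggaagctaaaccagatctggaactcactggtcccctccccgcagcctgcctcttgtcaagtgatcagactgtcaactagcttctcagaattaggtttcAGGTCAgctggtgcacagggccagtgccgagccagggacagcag
Pdk4: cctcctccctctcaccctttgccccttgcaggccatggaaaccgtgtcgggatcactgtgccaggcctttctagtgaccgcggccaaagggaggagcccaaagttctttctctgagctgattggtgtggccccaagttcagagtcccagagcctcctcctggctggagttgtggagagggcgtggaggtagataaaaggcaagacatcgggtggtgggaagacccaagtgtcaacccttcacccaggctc
Acsl3: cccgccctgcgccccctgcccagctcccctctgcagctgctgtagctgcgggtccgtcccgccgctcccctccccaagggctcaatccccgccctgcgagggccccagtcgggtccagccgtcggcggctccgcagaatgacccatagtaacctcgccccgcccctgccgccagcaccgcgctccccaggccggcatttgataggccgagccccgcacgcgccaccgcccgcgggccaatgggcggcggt
The Plin5 hexamer begins 170 bases before the start, and those of Ucp3 begin 149 and 44 bases before it. The windows of Fabp3, Pdk4 and Acsl3, and that of the other Plin5 start (chr17:56117299-56117548, not shown), hold none of the 3 motifs. A match is a run of letters and not a measured site.

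Among uptake and binding genes, Fabp3 stood highest against oil. Fabp3, the heart and muscle fatty acid binding protein of the cytosol, read 5407 on tamoxifen 48 h, 4492 on tamoxifen 24 h and 2674 on oil. Both tamoxifen arrays were above oil, by 2.02-fold at 48 h and 1.68-fold at 24 h. With the deposited values unscaled, its log2 ratio at 48 h was 0.95, just under 2-fold. Its dimmer kept probe set read 49.4, 24.2 and 23.2, so that it was above oil at 48 h (log2 ratio 1.09) and near oil at 24 h (0.06). Slc27a1, fatty acid transport protein 1, read 142.5 and 148.1 on tamoxifen at 48 h and 24 h and 99.3 on oil, and its other kept probe set read 94.4, 78.2 and 63.0. All 4 tamoxifen readings of this transporter were above the matching oil reading and under 1.5-fold of it. Cd36, the fatty acid translocase of the cell membrane, did not give one answer at 48 h across its 3 kept probe sets. The brightest read 1108 at 48 h, 1464 at 24 h and 1141 on oil. The other 2 probe sets had log2 ratios of 0.37 and 0.74 at 48 h, against -0.04 on the brightest. At 24 h all 3 were above oil, with 0.62 and 0.38 on these 2 and 0.36 on the brightest.

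Lipoprotein lipase and its inhibitor lay on opposite sides of oil. Lpl, which releases fatty acids from circulating triglyceride, read 2390 on tamoxifen 48 h, 2987 on tamoxifen 24 h and 4018 on oil. It was lowest at 48 h, 1.68-fold below oil, and its second kept probe set gave the same order with 601, 878 and 918. Angptl4, a secreted protein that inactivates lipoprotein lipase, read 187.6 at 48 h, 46.8 at 24 h and 28.3 on oil. Its level at 48 h was 6.62-fold above oil and 4.01-fold above 24 h. At 24 h it was 1.65-fold above oil. This rests on 1 kept probe set of a kind that can pair with more than one transcript (suffix s), and a second, below the filter, had deposited values between 2.06 and 6.66. Lpl and Cd36 are also made by fat cells and Cd36 by endothelium, so markers of these cells are given here. The 6 of 9 adipocyte markers with a kept probe set summed to 3996 at 48 h, 5415 at 24 h and 4673 on oil. Lep was below the filter, and Plin1 and Cfd were not analysed here. On their brightest probe sets, all 6 were above oil at 24 h (54.0% of all genes) and 4 of 6 were below oil at 48 h (50.6% of all genes above). Retn was above oil at 24 h by a log2 ratio of only 0.02. The largest, Fabp4, read 3365 at 48 h, 4437 at 24 h and 3926 on oil. Its other kept probe sets had log2 ratios to oil of -0.66, 0.19 and -1.55 at 24 h, so the direction at 24 h depended on probe set choice. The 5 endothelial markers summed to 950, 1144 and 1012. Their part in the values of Lpl, Cd36 and Angptl4 was not tested.

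Acyl-CoA synthetases, which activate fatty acids by joining them to coenzyme A, gave 1 gene with a difference. Acsl3, an isoform of the endoplasmic reticulum and lipid droplets, read 78.4 on tamoxifen 48 h, 167.9 on tamoxifen 24 h and 119.1 on oil. Its 3 kept probe sets had the same order, with the 24 h array highest and the 48 h array lowest. At 48 h it was 2.14-fold below 24 h on the brightest, and the others had log2 ratios of -1.61 and -1.88. Against oil, the 48 h array was 1.52-fold lower on the brightest and 2.75-fold and 1.90-fold lower on the others. Acsl4 read 269, 271 and 265 and Acsl5 105.2, 106.8 and 105.4 on the same arrays. On these probe sets, the brightest of Acsl4 and the only kept one of Acsl5, the 3 arrays did not differ by as much as 1.10-fold. The other kept probe sets of Acsl4 read 47.5, 67.4 and 45.5 and 23.4, 30.6 and 23.2, with the 24 h array highest and log2 ratios to oil of 0.57 and 0.40 at 24 h.

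Lipid droplet genes divided as well. Plin5, a perilipin of oxidative tissues that lines lipid droplets near mitochondria, read 393 at 48 h, 402 at 24 h and 179.1 on oil. It was 2.19-fold above oil at 48 h and 2.25-fold above at 24 h, and its second kept probe set read 258.6, 207.6 and 91.3, again with both tamoxifen arrays more than 2-fold above oil. Plin2, the widespread perilipin whose amount usually follows lipid content, read 172.5, 163.0 and 173.8. Pnpla2, adipose triglyceride lipase, which starts the breakdown of stored triglyceride, read 321 at 48 h, 440 at 24 h and 472 on oil. It was 1.47-fold below oil at 48 h and near it at 24 h, on its only kept probe set.

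**Figure D2:**
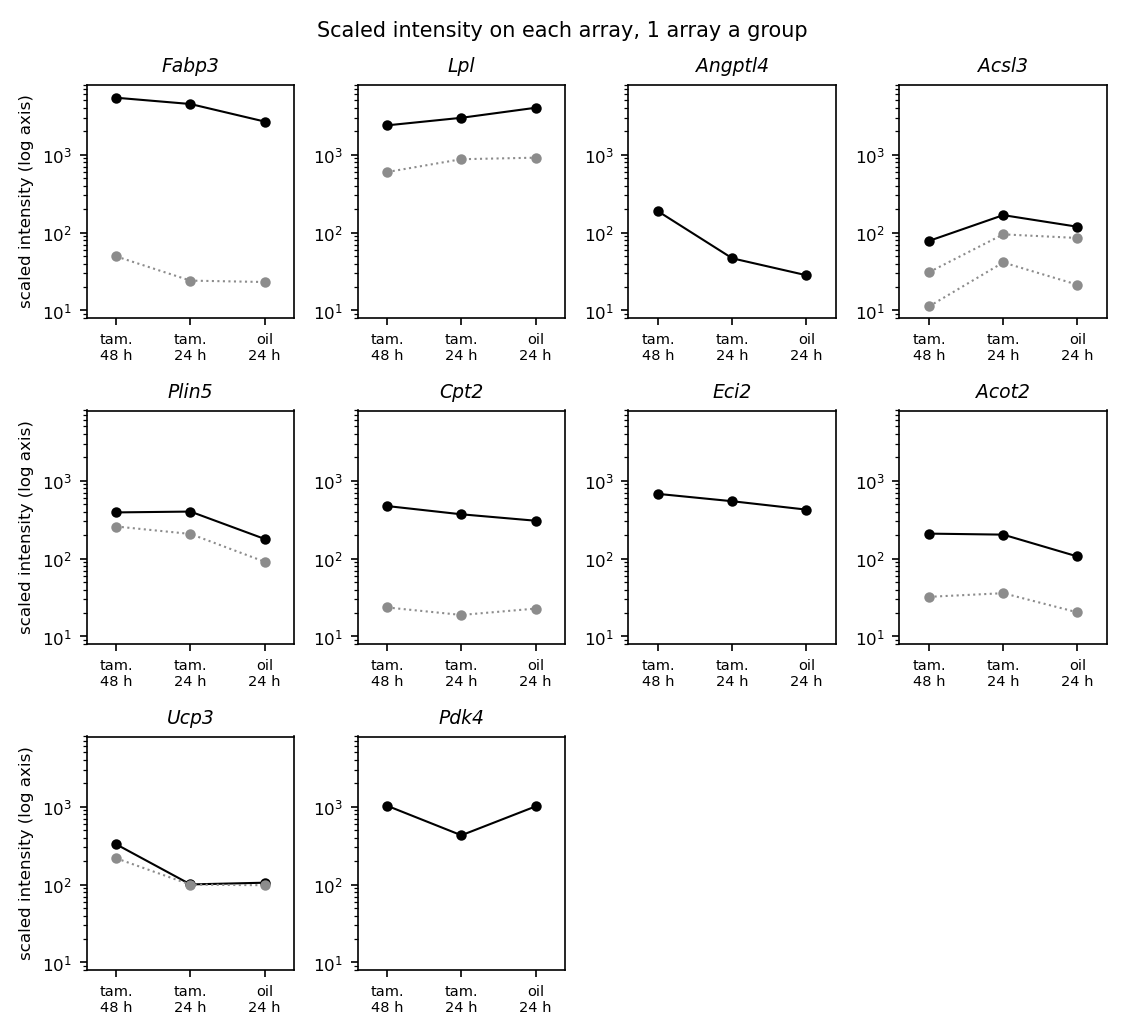
Scaled intensity (log axis) on the tamoxifen 48 h, tamoxifen 24 h and oil 24 h arrays for the 10 fatty acid genes at least 1.5-fold different in any comparison, with the probe set that stands for the gene in black and its other kept probe sets dotted in grey. Both Plin5 probe sets and both Ucp3 probe sets run together, while the dim second probe set of Cpt2 stays between 18.9 and 23.6.

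Ucp3 and Pdk4 each had 1 array that stood away from the other 2. Ucp3, a mitochondrial carrier whose messenger RNA tracks fatty acid supply in muscle, read 329 on tamoxifen 48 h, 100.6 on tamoxifen 24 h and 105.9 on oil. At 48 h it was 3.11-fold above oil and 3.27-fold above 24 h, and the second kept probe set read 217.7, 99.9 and 98.3. Pdk4, pyruvate dehydrogenase kinase 4, which holds back glucose oxidation when fat is burned, read 1030 at 48 h, 430 at 24 h and 1011 on oil. The 24 h array alone was low, 2.35-fold below oil, and the 48 h value was 1.02-fold that of oil. Pdk4 had 1 kept probe set, and with arrays scaled to the median of all probe sets its log2 ratio at 24 h was -0.94, just under 2-fold.

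Entry into mitochondria was read on 3 genes, all above oil on their brightest probe set at both times. Of all genes, 50.6% were above oil at 48 h and 54.0% at 24 h. Cpt2, the carnitine palmitoyltransferase of the inner membrane, read 474 at 48 h, 371 at 24 h and 307 on oil. Its ratio at 48 h was 1.54-fold, while a dim second probe set had log2 ratios of 0.05 at 48 h and -0.27 at 24 h. Cpt1a, the liver form of the outer membrane enzyme, read 108.7, 92.4 and 73.8. Its 2 dimmer probe sets were both below oil at 24 h, at log2 ratios of -1.69 and -0.55, so no direction is given for it. Mlycd, malonyl-CoA decarboxylase, which removes the inhibitor of the outer membrane enzyme, read 254, 212 and 201.

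The enzymes of the beta-oxidation cycle differed little, and not evenly from step to step. Of the acyl-CoA dehydrogenases, which carry out the first oxidation, Acadl (long chain) read 1949, 1727 and 1486 and Acads (short chain) 257.9, 234.4 and 197.6 on tamoxifen 48 h, tamoxifen 24 h and oil. Acadm (medium chain) and Acadvl (very long chain) were within 1.10-fold of oil at both times. The log2 ratios of the 4 ran from -0.02 to 0.39 at 48 h.

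Hadha and Hadhb encode the alpha and beta subunits of the mitochondrial trifunctional protein, which carries out the later steps for long chains, and they lie head to head with overlapping start regions. Below is the Hadhb window, chr5:30155003-30155252 on the plus strand of GRCm38.p6, with the 228 bases it shares with the Hadha window on the minus strand in capitals.
Hadhb: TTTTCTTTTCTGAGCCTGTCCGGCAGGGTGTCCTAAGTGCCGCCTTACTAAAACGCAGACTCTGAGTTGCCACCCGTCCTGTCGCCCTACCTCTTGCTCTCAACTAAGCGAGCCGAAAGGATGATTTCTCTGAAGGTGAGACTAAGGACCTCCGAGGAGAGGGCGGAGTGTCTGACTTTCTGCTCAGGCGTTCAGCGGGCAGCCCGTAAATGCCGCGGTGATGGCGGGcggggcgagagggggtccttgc
Hadha read 870 at 48 h, 772 at 24 h and 655 on oil, 1.33-fold above oil at 48 h. Hadhb read 2102, 2212 and 2162 on its brightest probe set, within 1.10-fold in every comparison. A second bright Hadhb probe set had log2 ratios of 0.13 at 48 h and -0.17 at 24 h, and a dim one -0.62 and -1.44. Of the other later enzymes, Acaa2, the thiolase of the cycle, was 1.45-fold above oil at 48 h on its brightest probe set, with log2 ratios of 0.16 and 0.20 on the others. Hadh, the short-chain hydroxyacyl-CoA dehydrogenase, was 1.11-fold above on its brightest probe set, with log2 ratios of 0.03 and -0.67 on the others. The last of these, a dim one, was also below oil at 24 h (-0.89). Acat1, the acetoacetyl-CoA thiolase, read 1142, 1088 and 1264 with another probe set on the other side of oil.

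The auxiliary enzymes, which prepare unsaturated chains for the cycle, had all 4 members above oil at both times on their brightest probe sets. Of all genes, 50.6% were above oil at 48 h and 54.0% at 24 h. All 4 were also higher at 48 h than at 24 h, against 46.9% of all genes. Eci2, an enoyl-CoA isomerase, read 679 on tamoxifen 48 h, 546 on tamoxifen 24 h and 426 on oil, 1.59-fold above oil at 48 h. Ech1, the dienoyl-CoA isomerase, read 1499, 1181 and 1070. Decr1, the dienoyl-CoA reductase, read 690, 557 and 516, and its second probe set was 0.95 above oil in log2 at 48 h. Eci1, the other isomerase, was 1.20-fold above oil at 48 h. Its log2 ratio of 48 h to 24 h was only 0.06, and -0.15 with arrays scaled to the median of all probe sets. The median log2 ratio of these 4 genes was 0.45 at 48 h and 0.17 at 24 h, against 0.0070 and 0.04 over all 11092 genes.

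Electron transfer genes followed the same small range. Etfb and Etfdh, the beta subunit of electron transfer flavoprotein and its dehydrogenase, were 1.24-fold and 1.28-fold above oil at 48 h, and Etfa, the alpha subunit, was 1.09-fold below. Thioesterases release free fatty acids from coenzyme A. Acot2, the mitochondrial one, read 209.5 on tamoxifen 48 h, 203.4 on tamoxifen 24 h and 106.7 on oil, 1.96-fold and 1.91-fold above, and its second kept probe set gave log2 ratios of 0.66 and 0.82. Acot1, the cytosolic enzyme of closely similar sequence, was dim at 21.6, 19.5 and 27.3, and a probe set that lists both genes was not read. Acot13 was within 1.10-fold of oil at both times.

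Bright and dim probe sets did not vary alike. Among the 59 kept probe sets of these genes, 44 had a mean scaled intensity of 100 or more, and their median absolute log2 ratio to oil was 0.37 at 48 h and 0.19 at 24 h. The other 15 had medians of 0.62 and 0.55. For the 16 genes with 2 or more kept probe sets, the brightest and the next had the same sign in 13 genes at 48 h and in 11 at 24 h, against 66.8% and 61.1% of all such genes on the array.

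**Figure D3:**
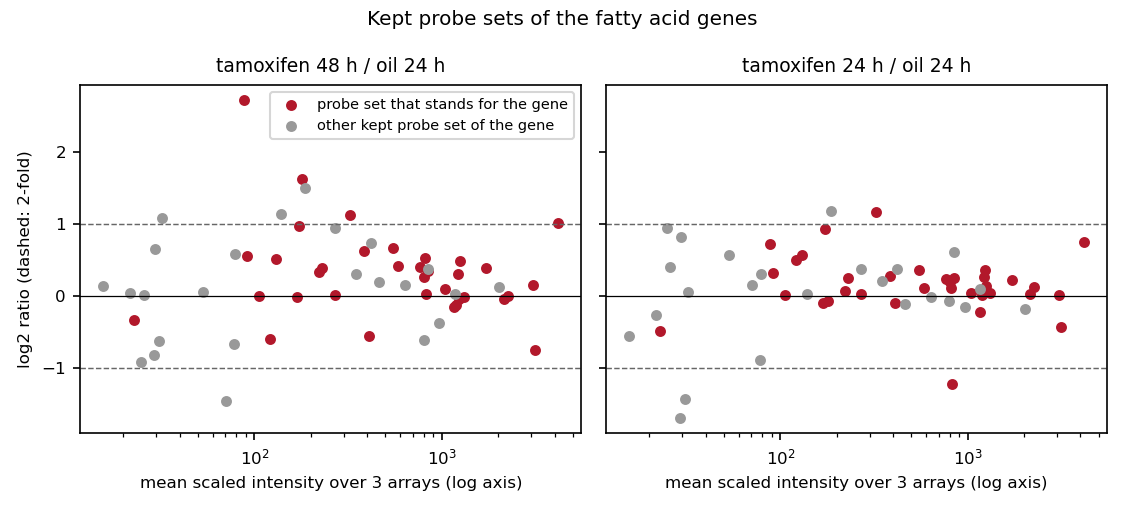
Log2 ratio to oil against mean scaled intensity (log axis) for the 59 kept probe sets, at 48 h on the left and 24 h on the right, with the probe set that stands for each gene in red and the others in grey. Below an intensity of 100 the points scatter more widely, with extremes of -1.46 and 2.73 at 48 h and of -1.69 and 0.95 at 24 h.

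As a group, the 35 genes lay a little above all genes at 48 h. Their median log2 ratio to oil was 0.31 at 48 h, against 0.0070 over 11092 genes, and 24 of 35 genes were above oil (68.6%, against 50.6% of all genes). At 24 h the median was 0.13 against 0.04, with 28 of 35 above oil (80.0% against 54.0%). The 24 h difference depended on normalization: after quantile normalization the median was 0.061 against 0.031, and 21 of 35 genes were above oil (60.0% against 53.2%). At 48 h that normalization gave 0.23 against -0.0094, also with 21 of 35 above oil (60.0% against 49.1%). Most of these differences were under 1.5-fold. At that size, 7 genes were higher and 2 lower at 48 h (background 11.7% and 10.7%), and 4 higher and 1 lower at 24 h (background 9.57% and 9.02%). Tamoxifen 48 h against tamoxifen 24 h gave a median of 0.08 against -0.02, and with the deposited values unscaled it was -0.075 against -0.18. At 1.5-fold, 3 were higher and 1 lower in that comparison (background 6.91% and 5.84%). The oil array enters both ratios to oil, so these are not independent.

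**Figure D4:**
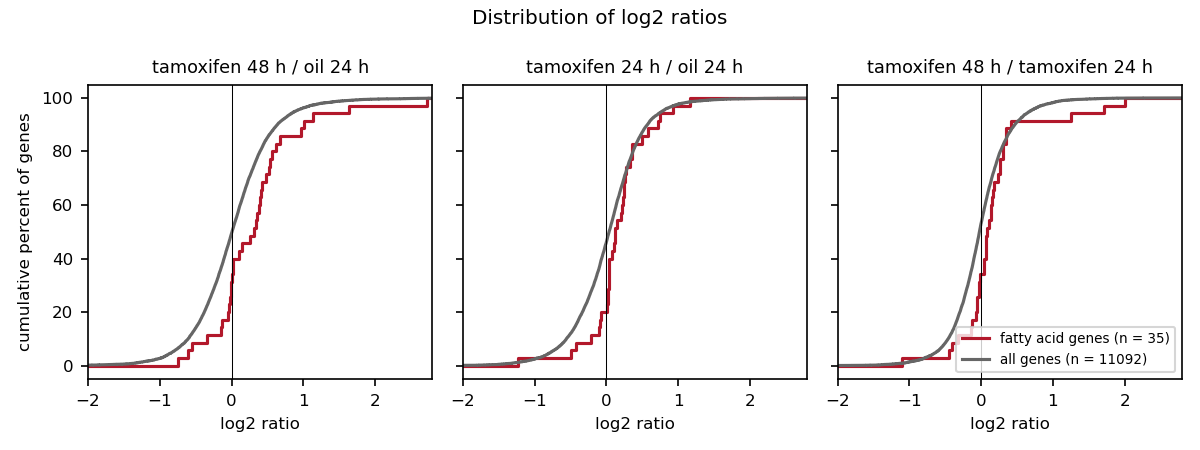
Cumulative percent of genes by log2 ratio for the 35 fatty acid genes (red) and all 11092 genes (grey), in 3 comparisons with 1 array a group. The red curve lies to the right of the grey one over its middle part at 48 h against oil, where the medians are 0.31 and 0.0070.

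Slow fibres, which use more fat, are a further reading to set beside these values. All 7 slow-fibre markers were lower at 48 h than at 24 h, as were 5887 of all 11092 genes. The 6 adipocyte and 5 endothelial markers were all lower too, and 2 of the 9 skeletal muscle fibre markers. The summed intensity of the slow-fibre markers was 8222 on tamoxifen 48 h, 10724 on tamoxifen 24 h and 9411 on oil. Of the 35 fatty acid genes, 23 were higher and 12 lower at 48 h than at 24 h (65.7% higher, against 46.9% of all genes). This count depended on scaling. On unscaled values 13 of 35 were higher (37.1%, against 29.3% of all genes). With arrays scaled to the median of all probe sets 11 of 35 were higher (31.4% against 24.1%). The part of fibre type in these values was not tested.

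Other genes of fatty acid use, 75 in 10 groups, were read in the same way, and 69 had a kept probe set. At 48 h, 6 of 69 were at least 2-fold above oil and none below (background 3.72% and 2.71%). At 24 h, 5 were above and 2 below (background 2.35% and 2.48%). Between the tamoxifen arrays, 4 were higher at 48 h and 1 lower (background 1.80% and 1.42%). The median log2 ratios to oil were 0.13 at 48 h and 0.08 at 24 h, against 0.0070 and 0.04 over all genes. G0s2, the protein inhibitor of adipose triglyceride lipase, read 1382 on tamoxifen 48 h, 666 on tamoxifen 24 h and 258.6 on oil. It was 5.34-fold and 2.57-fold above oil, while Pnpla2, the lipase it inhibits, was below oil at 48 h. Lipe, hormone-sensitive lipase and an adipocyte marker, was 2.22-fold lower at 48 h than at 24 h (48.5 against 107.8, with 57.9 on oil). Cidec, a fat cell droplet protein, was 2.15-fold above oil at 24 h and 1.28-fold at 48 h. Acot7, a cytosolic thioesterase, read 280.6, 193.1 and 87.7, which is 3.20-fold above oil at 48 h and 2.20-fold at 24 h. G0s2, Lipe, Cidec and Acot7 had 1 kept probe set each. Agpat3, an acyltransferase of glycerolipid synthesis, was 2.08-fold above oil at 48 h, and its other 3 kept probe sets gave log2 ratios of 1.04 to 1.31. Acad10 was 2.01-fold below oil at 24 h on a dim probe set, with its other one at a log2 ratio of 0.07.

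Regulators of these genes held several of the differences. Rxrg, the RXR gamma partner of PPAR receptors, read 523 on tamoxifen 48 h, 565 on tamoxifen 24 h and 184.7 on oil, with both tamoxifen arrays well above oil. Ppargc1b, the coactivator PGC-1 beta, read 463 at 48 h, 194.4 at 24 h and 195.4 on oil, so the 48 h array alone was high, as for Ucp3. Nrip1, the corepressor RIP140, was 2.49-fold below oil at 24 h and 3.17-fold higher at 48 h than at 24 h (472, 148.7 and 369.9), with the 24 h array alone low, as for Pdk4. Its 6 kept probe sets did not all show this, since those at 55.1, 54.1 and 52.5 and at 18.4, 18.8 and 19.0 were flat. Ppard, PPAR delta, read 51.5 at 48 h, 22.4 at 24 h and 29.6 on oil. Pparg, the fat cell PPAR, was dim at 24.3, 32.4 and 6.46. Its oil reading was close to the floor of 4.05, so no fold is given. Under a floor at the 50th percentile its log2 ratio to oil was 0.79 at 48 h and 1.20 at 24 h, so that 5 of the 69 genes and not 6 were at least 2-fold above oil at 48 h. Ppargc1a, Ppara and Esrra were within 2-fold of oil on their brightest probe sets. Ppargc1a, PGC-1 alpha, read 132.9 on tamoxifen 48 h, 166.0 on tamoxifen 24 h and 150.8 on oil. Its other kept probe sets lay on both sides of oil, with log2 ratios from -0.19 to 0.71 at 48 h. Ppara, PPAR alpha, read 72.7, 54.2 and 92.8 on the same arrays. Its probe sets disagreed, since another kept one read 61.6, 22.4 and 82.3, which is 3.67-fold below oil at 24 h, and the third read 41.3, 34.1 and 31.4. Esrra, ERR alpha, read 356.5, 311.5 and 244.0, highest at 48 h. Rxrg, Ppargc1b, Ppard, Pparg and Esrra had 1 kept probe set each. The peroxisomal, carnitine, malonyl-CoA and lipoprotein lipase handling groups had no gene at least 2-fold from oil on its brightest probe set, and neither did the other pyruvate dehydrogenase kinases and phosphatases. Other kept probe sets were at least 2-fold below oil for Prkaa2 and Vldlr at 24 h and for Scp2 at 48 h. That of Prkaa2 was itself bright, with 961 at 48 h, 432 at 24 h and 972 on oil, so the 24 h array alone was low. A dim kept probe set of Fabp4 was at least 2-fold below oil at both times, with 41.7 at 48 h, 32.2 at 24 h and 94.4 on oil.

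**Figure D5:**
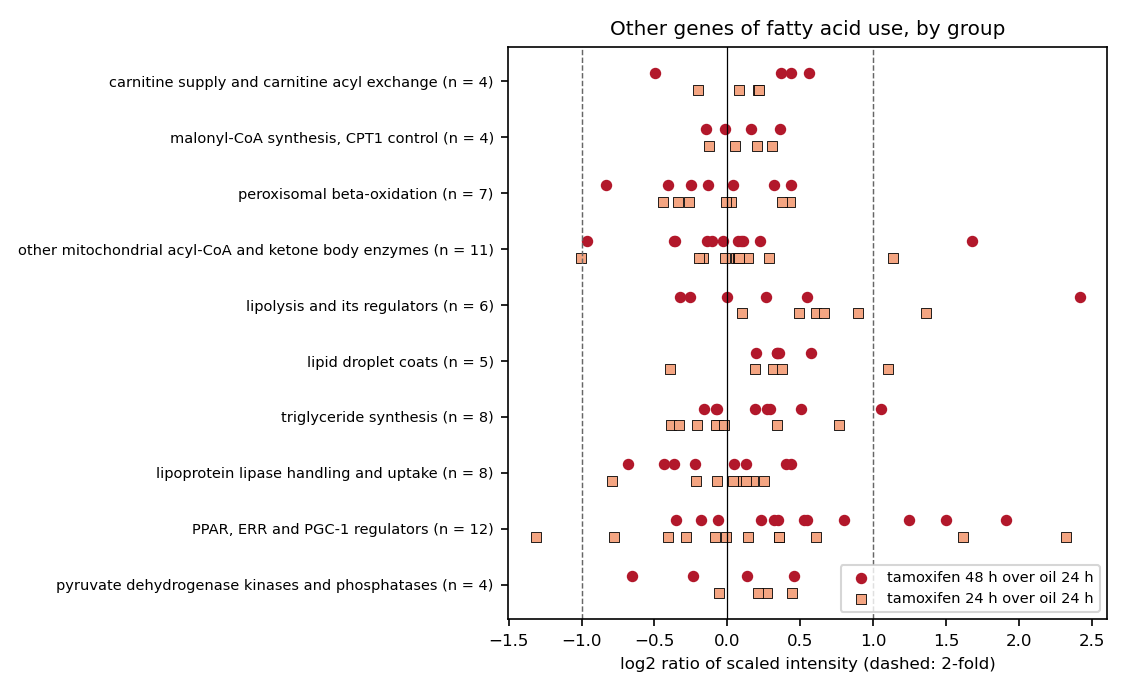
Log2 ratio to oil of 69 further genes of fatty acid use in 10 groups, with circles for tamoxifen 48 h and squares for tamoxifen 24 h and 1 array a group. G0s2 is the circle at 2.42 in the lipolysis group, and Rxrg and Ppargc1b are regulators past 2-fold at 48 h. The Pparg points rest on a dim oil reading.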

How the data were processed

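Gastrocnemius RNA of 3 groups was measured on 3 arrays, 1 a group. The deposited intensity values are linear, 1 per probe set and array; how the authors summarised, background-corrected and scaled them was not stated in the sources used. Of 45101 probe sets, 64 controls were left out; 34945 list 1 gene, 932 several and 9160 none, and symbols were updated through Entrez identifiers. Probe sets with a percentile rank of 0.5 or more, averaged over the arrays, were kept (21804, covering 11092 genes). Each array was scaled to 1 common median of these (factors 1.05 for tamoxifen 48 h, 0.945 for tamoxifen 24 h and 1.01 for oil), a floor of 4.05 was set (the 25th percentile) and log2 ratios were taken. The calculation was tested on simulated data. Members, lists and rules were chosen with earlier results of these data known. Every member was named, with its 3 values where it differed by 1.5-fold or more or was needed for contrast; other genes were named at 2-fold, and some regulators and within-range genes were added after their values were seen. No 48 h oil array and no tamoxifen array of mice without the fusion was analysed here, so at 48 h the effect of time cannot be told apart from that of treatment. Alternatives covered scaling, filter, floor, probe set choice and fold. The number of arrays limits the precision. Python 3.11.15 with pandas 2.3.3 was used.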

Additional observations from a re-analysis of the deposited data

How the results depend on the processing

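Of 1044 alternative values of 105 log2 ratios (35 genes, 3 comparisons), 1019 moved by less than the spread between probe sets of a gene. The other 25 came from reading other probe sets, and no called ratio reversed. That spread was 0.37 to 0.43 in log2, wider than the members' median ratio in each comparison. No change of scaling, filter or floor passed it, so the count says little about these settings. Counts of genes above oil did move with scaling, as given above. Without scaling, Plin5 and Acot2 (2 genes) were at least 2-fold above oil at 24 h, beside 363 of all 11092 genes. The median for tamoxifen 48 h against tamoxifen 24 h was then -0.075. Scaling to the median of all probe sets, added after seeing the data, gave 4 genes higher and 0 lower at 24 h. Over all 11092 genes it gave 701 higher and 115 lower. Pdk4 fell just short of 2-fold lower at -0.94. With this scaling, medians were 0.42 at 24 h and -0.13 for tamoxifen 48 h against tamoxifen 24 h, with all genes at 0.33 and -0.24. Quantile normalization brought the members' distance from all genes at 24 h to 0.029 and a rank filter of 0.75 to 0.043, against 0.089. Scaling to all probe sets moved the higher share of all calls at 24 h to 85.9%, against 48.7%. With the dimmest kept probe set, 2 genes were at least 2-fold lower at 24 h, beside 551 of all 11092 genes. A 1.5-fold rule gave 4 higher at 24 h, and 7 higher and 2 lower at 48 h. A rank filter of 0.75 removed Angptl4 and Acot1. No paired analysis was possible because each group has 1 array, and for the same reason no array could be left out. Probe sets under an intensity of 100 limit Angptl4, Cpt1a and Acot1 most.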
